A study of Caenorhabditis elegans with 2 samples.

Results

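Chromosome III of Caenorhabditis elegans carried 1269 of the 6218 peaks of KLE-2 in a chromatin immunoprecipitation (ChIP-seq) of whole adult worms. These peaks were taken as every entry of the deposited peak list whose chromosome is III on the WormBase WS220 assembly. No score, width or other measured value was used to choose them. The animals were hermaphrodites of the strain fem-2(b245), genotype fem-2(b245)III, labelled as young adults with a germline and grown at 20 °C. The labels' growth protocol speaks of gravid adults, so the exact age of the animals is not clear from the labels. Ground frozen worms were fixed with 1% formaldehyde for 10 minutes, and KLE-2 was pulled down from sheared chromatin with 5 µg of a polyclonal rabbit antibody. There was 1 ChIP library and, from the same strain, 1 library of input DNA, both labelled replicate 1. The input library was not analysed here. Whole animals were used, so peaks from germline and somatic nuclei cannot be told apart.

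KLE-2 is the kleisin of condensin II, the subunit that bridges the heads of the paired SMC proteins and closes the ring of the complex. Condensin II is nuclear through the cell cycle and compacts chromosomes ahead of division, and it is needed in dividing tissues such as the germline. In this species it is accompanied by condensin I and by a relative of condensin I that acts in dosage compensation on X. The autosomes, chromosome III among them, have gene-dense centers with little recombination and arms that are richer in repeats and recombine more. The gene kle-2 itself lies on chromosome III, as does fem-2, which acts in sex determination and carries the mutation of this strain.

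All values come from 1 peak list, so there is no replicate error and no test between conditions. Intervals are exact 95% intervals for counts, shares or medians. They hold counting error alone and would be wider if the dependence between neighbouring peaks were counted. Counts in windows of 100 kb varied more than independent placement gives, with a variance 2.14 times the mean on chromosome III, so some density ratios are also given with a widened interval. It was widened on the log scale by the square root of that ratio for zones within III, of its own ratio for zones of another chromosome, and of the larger ratio for III against other chromosomes.

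KLE-2 peaks were dense on chromosome III. It held 92.1 peaks per Mb (87.1 to 97.4) over a span of 13.8 Mb, and 6.21% of that span lay inside a peak. The other 4 autosomes together held 65.7 peaks per Mb (63.8 to 67.6) and were covered to 4.46%. The ratio of the densities was 1.40 (1.32 to 1.49, widened interval 1.28 to 1.54). Set against single autosomes, the density on III was 1.36 times that on II (1.25 to 1.48), 1.43 times that on IV (1.32 to 1.55) and 1.86 times that on V (1.71 to 2.02). Against chromosome I the ratio was only 1.05 (0.973 to 1.14), an interval that includes equal density. Chromosomes III and I were therefore not separable by counting error, whereas the widened intervals for II, IV and V all stayed above equal density.

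Chromosomes III and I were also close when peaks no more than 500 bp apart were joined, which left 1089 regions on III, or 79.1 per Mb (74.4 to 83.9), and 77.8 per Mb on I (73.4 to 82.3). Joining removed 180 of the peaks on III and 148 of those on I. The excess over the other 4 autosomes pooled was present at every level of score. In 4 classes of nearly equal size by score over the whole list, the ratio of III to the other 4 autosomes was 1.31 (1.15 to 1.49) for the weakest peaks, 1.42 (1.25 to 1.61) and 1.64 (1.45 to 1.85) for the middle classes, and 1.26 (1.10 to 1.43) for the strongest. Peaks of the class with scores from 229.53 to 578.865 were the most over-represented by point estimate, with 362 peaks or 28.5% of those on III (26.1 to 31.1%) against 24.4% on the other autosomes (23.2 to 25.7%).

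The left and right arms of chromosome III were almost equally occupied. The left arm, the first 33.3% of the span (up to 4.59 Mb), held 434 peaks, the center 402 and the right arm (from 9.18 Mb) 433. These counts correspond to 94.5 peaks per Mb (85.9 to 104), 87.6 (79.2 to 96.6) and 94.3 (85.6 to 104). The ratio of left to right was 1.00 (0.875 to 1.15), and that of both arms to the center was 1.08 (0.957 to 1.22). Neither ratio departed from equality beyond counting error.

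The other autosomes were less even from arm to arm. On chromosome I the left arm was 1.28 times as dense as the right (1.12 to 1.47), and on IV 1.40 times (1.21 to 1.62). On II the left arm was the sparser one, with a ratio of 0.850 (0.733 to 0.984), and on V the ratio was 0.899 (0.773 to 1.04). With the widened intervals the left to right difference remained on I (1.06 to 1.56) and IV (1.11 to 1.76) and not on II (0.688 to 1.05). Whether the evenness of III differs from the other chromosomes was not tested. In the right arm, III held 94.3 peaks per Mb and the other autosomes 53.8 to 78.4, whereas in the left arm chromosome I, with 100.5 (91.9 to 110), was above it by point estimate.

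**Figure D1:**
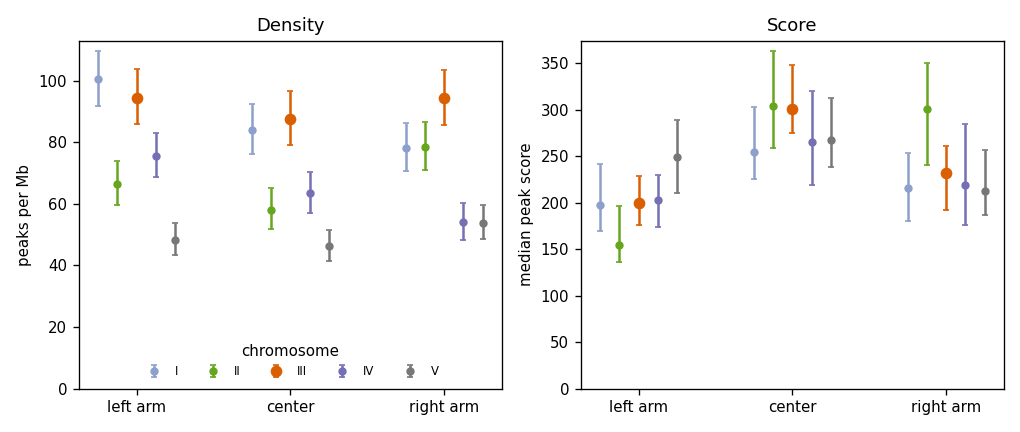
Peak density (left panel, peaks per Mb) and median peak score (right panel) by zone of each autosome, with arms of 33.3% of the span; bars are exact 95% intervals. Chromosome III (large orange points) had 94.5, 87.6 and 94.3 peaks per Mb, and its center had the higher median score, 301.25 against 199.47 and 231.67 in the arms.

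Weak peaks were denser in the arms of III, while strong peaks were not. Among peaks at or below the list's median score of 229.53, the left arm of III held 239, the center 159 and the right arm 213. The arms were 1.42 times as dense as the center in these weak peaks (1.18 to 1.71, widened 1.09 to 1.85). Among peaks above the median, the center held the most, with 243 against 195 on the left and 220 on the right, a ratio of arms to center of 0.854 (0.727 to 1.00, widened 0.677 to 1.08) that did not depart from equality beyond its interval. By point estimate the other autosomes had the same pattern. Their ratios of arms to center ran from 1.17 on IV to 1.67 on II for weak peaks, and from 0.891 on IV to 0.984 on II for peaks above the median. On III, peaks with a score above 578.865 numbered 81 on the left, 103 in the center and 112 on the right, and the differences between these counts were not tested. By count, the left arm of III thus had the most peaks at or below the median and the fewest above 578.865. Peaks with a score of 3100 or more did not follow this order, with 9 on the left, 3 in the center and 7 on the right.

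Median scores of the 3 zones ran opposite to their counts of peaks at or below the list's median score. Both come from the same scores, so this is not a separate observation. The center of III had a median score of 301.25 (275.09 to 348.4), the left arm 199.47 (176.18 to 228.17) and the right arm 231.67 (192.54 to 260.41). The intervals of both arms lay below that of the center, and they overlapped each other. Center peaks were also wider, with a median of 590 bp (575 to 612) against 525 bp (497 to 549) on the left and 540 bp (520 to 568) on the right. The center had the highest median score of the 3 zones on all 5 autosomes, by 1.51 times over the left arm and 1.30 times over the right on III. On the other autosomes these ratios ran from 1.07 on V to 1.96 on II for the left arm, and from 1.01 on II to 1.25 on V for the right arm.

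At a finer grain, density on III moved between 58 and 114 peaks over the 13 full bins of 1 Mb. The sparsest bin, from 6 to 7 Mb with 58 peaks (44.0 to 74.98), lay directly beside the fullest, from 7 to 8 Mb with 114 (94.0 to 137). The sparse bin was not weak: its median score of 404.42 was the highest of all the bins, and 40 of its 58 peaks were above the list median. The first 3 Mb had low median scores of 186.58, 170.24 and 162.38, with 79, 106 and 97 peaks. The first of these bins was below the 92.1 peaks per Mb of the whole chromosome, and the others were above it. From 11 to 12 Mb the median fell to 146.75, the lowest of the chromosome. The last 0.77 Mb was crowded, with 92 peaks, a density of 119.2 per Mb.

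In bins of 500 kb, 17 of the 27 full bins held 41 to 50 peaks. The lowest were 6.5 to 7 Mb and 9 to 9.5 Mb, each with 27 peaks (17.8 to 39.3). The highest were 7 to 7.5 Mb with 72 (56.3 to 90.7) and 1.5 to 2 Mb with 64 (49.3 to 81.7). When each autosome was cut into 10 equal segments, III had the highest density of the 5 in 4 segments and the next highest in the other 6. Its last segment held 116.9 peaks per Mb (99.5 to 136), while the other autosomes reached 45.2 to 91.1 there. The segment from 40% to 50% of its span was its sparsest, with 67.5 per Mb (54.5 to 82.7).

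**Figure D2:**
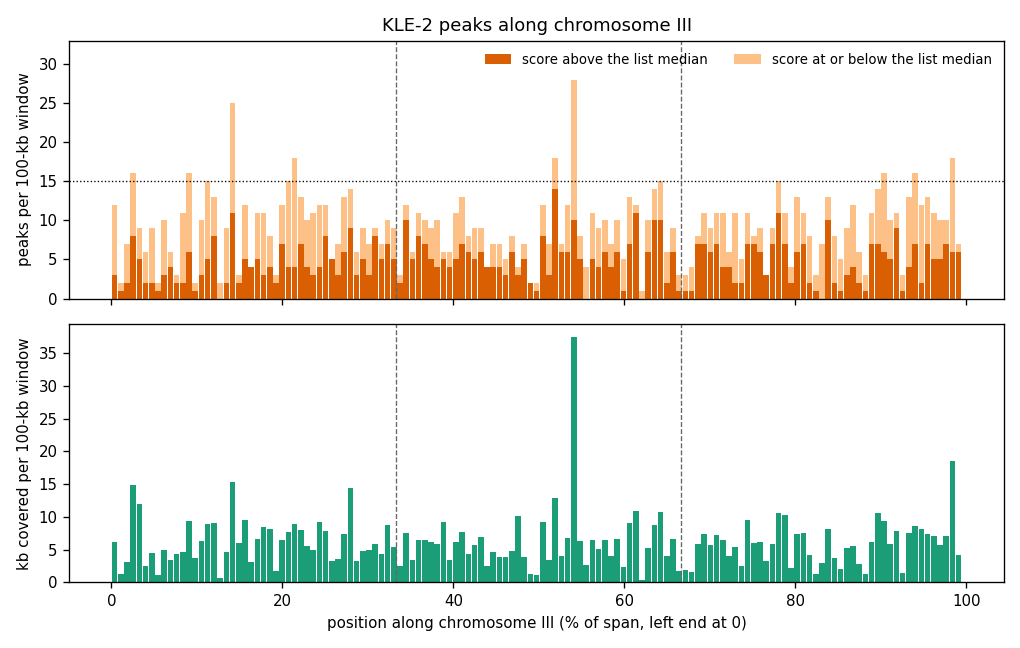
Peaks per full 100-kb window along chromosome III (upper panel, split at the list's median score; the dotted line is 15 peaks) and kb covered by peaks (lower panel), against position as a percentage of the span; dashed lines separate the arms from the center. The fullest window, in the center, held 28 peaks and 37.5 kb of covered sequence, and the next held 25 peaks and 15.3 kb.

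Windows of 100 kb gave a mean of 9.18 ± 4.44 peaks on chromosome III (SD, n = 137 windows) against 6.57 ± 4.04 on the other 4 autosomes (SD, n = 685 windows). Most windows of III, 101 of 137 or 73.7%, held 5 to 14 peaks. No full window of III was without a peak, while 15 windows of the other autosomes were, 10 of them on V. On III 7 windows, 5.11% (2.08 to 10.2%), held 2 or fewer peaks, against a background of 14.2% on the other autosomes. That background ran from 6% on I to 25.8% on V. The emptiest was 8.5 to 8.6 Mb, with a lone peak of 385 bp and a score of 65.62. The right arm had no window this sparse, the left arm had 4 and the center 3.

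Crowded windows, taken as 15 or more peaks, numbered 13 on III, or 9.49% (5.15 to 15.7%), against a background of 4.09% on the other autosomes. Chromosome I, the closest in density, had 14 of 150, or 9.33%. The crowded windows of III held 231 peaks, 18.2% of the total, and were spread over the left arm (6), the center (3) and the right arm (4). Neighbouring windows had nearly unrelated counts: the correlation of a window with the next was r = 0.01 over the 137 windows of III, and between -0.05 and 0.12 on the other autosomes. This is a description across positions of 1 chromosome. Of the 13 crowded windows, 2 adjoined each other, at 2.8 to 2.9 and 2.9 to 3.0 Mb, and 2 touched a window with 3 or fewer peaks.

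Crowded windows held weaker peaks when pooled, and closer ones. Close neighbours are likely in windows chosen by their number of peaks, and what the lower scores follow from was not tested. The peaks of the crowded windows had a median score of 178.91 (154.3 to 235.37) against 251.76 (231.67 to 281.66) in the other 124 windows. Of these peaks 76.2% (70.2 to 81.5%) had a neighbour within 2 kb, against 44.3% (41.2 to 47.4%) in the other windows. Only 1 of the 231 had a score of 3100 or more. Not every crowded window was weak: medians at 8.8 to 8.9 Mb (499.49), 10.7 to 10.8 Mb (411.46), 7.1 to 7.2 Mb (392.925) and 0.3 to 0.4 Mb (261.515) exceeded 251.76. The remaining crowded windows had medians below it. Median widths were alike, 571 bp (536 to 621) and 555 bp (540 to 568). When peaks within 500 bp were joined, the 13 crowded windows of III became 1, with 18 regions, and the variance of window counts fell from 2.14 to 1.35 times the mean. After joining, the other autosomes had 1 to 3 crowded windows each and variances of 1.55 to 1.86 times the mean. The joined regions of III were thus spread more evenly than its peaks, and the number of crowded windows depended on whether close peaks were joined.

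**Figure D3:**
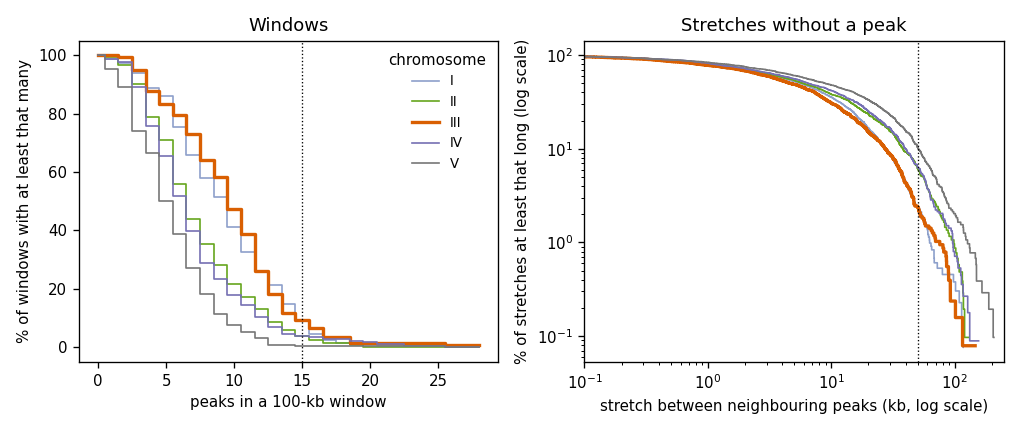
Share of 100-kb windows holding at least a given number of peaks (left panel, dotted line at 15) and share of stretches between neighbouring peaks at least a given length (right panel, both axes logarithmic, dotted line at 50 kb), for each autosome. Chromosomes III and I run close together: 9.49% and 9.33% of their windows held 15 or more peaks, against 0.478% on V.

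The fullest window of III, from 7.4 to 7.5 Mb, and the next, from 1.9 to 2.0 Mb, were crowded in different ways. The first contained the longest chain of peaks on any of the 6 chromosomes, where a chain is a run of peaks each within 2 kb of the next. It ran from 7405303 to 7440351, a stretch of 35.0 kb with 22 peaks that covered 30.0 kb, or 85.5% of it. The peaks almost touched, with gaps of 9 to 927 bp and a median of 135 bp. Their scores stayed low, from 58.17 to 514.03 with a median of 127.16, and only 6 of the 22 were above the list median. Their widths reached 5566 bp, with a median of 877 bp. After a gap of 3.9 kb came a separate peak of 4942 bp with a score of 2179.29 (7444253 to 7449194), and the rest of the window held just 5 more peaks.

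The scores of this chain were low for the width of its peaks. The input library was not analysed here, so whether the input also differs over this stretch was not tested. Its 4 peaks of 2 kb or wider scored 110.32 to 514.03, while the 25 such peaks elsewhere on III scored 423.01 to 3122.81 with a median of 2179.29. Its 6 peaks from 1000 to under 2000 bp had a median score of 221.44 against 1103.79 for 92 peaks elsewhere on III, and its 7 peaks from 500 to under 750 bp had 97.73 against 365.81 for 508 peaks. Of the 50 peaks of 1500 bp or more on III, 7 lay in this chain, and all 7 scored 600 or less, compared with 6 of the 43 elsewhere on III. On the other 4 autosomes 43 of 208 peaks this wide, or 20.7%, scored 600 or less, with 25.4% on IV. Peaks of 2 kb or wider there had a median score of 3073.99 and scores down to 64.68, so wide peaks of low score were not limited to this chain. These classes were chosen after the values had been seen. Without the chain, the 7 to 8 Mb bin held 92 peaks, the bin from 7 to 7.5 Mb held 50 and the window itself held 6, so the fullest bins of the center rested on it. The density of III as a whole moved little, to 90.5 peaks per Mb.

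The window from 1.9 to 2.0 Mb held 25 peaks without such a block. They covered 15.3 kb, the widest was 1191 bp, and 11 were above the list median, up to a score of 2121.25 (1950083 to 1950787). Its longest chain had 8 peaks (1920957 to 1929854), of which 51.0% was covered. The last strong peaks of this chain had scores of 1821.78 (1924861 to 1925689) and 1442.71 (1926291 to 1927145). Within 3 kb of the latter, the chain ended in weak peaks of 54.56, 132.1, 76.36 and 114.52.

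**Figure D4:**
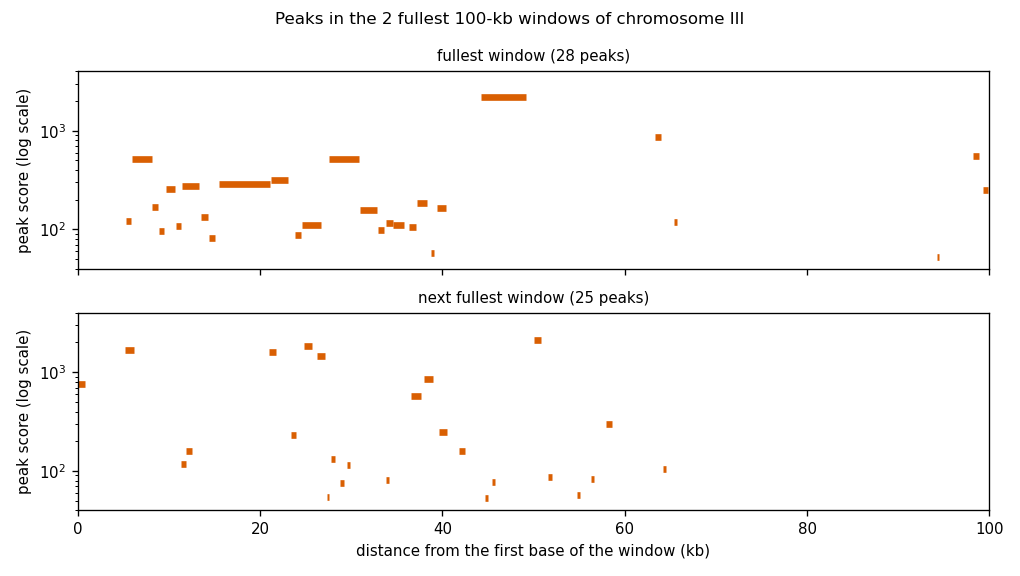
Each horizontal bar is a peak in the fullest (upper panel, 28 peaks) and the next fullest (lower panel, 25 peaks) 100-kb window of chromosome III, drawn to its width at the height of its score (log scale) against distance from the window's first base. The upper window shows a nearly unbroken run of low-scoring peaks over 35.0 kb and then a peak of 2179.29, and the lower window shows narrow peaks of mixed score.

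The other crowded windows took both forms. Windows of 18 peaks lay at 13.5 to 13.6 Mb, 7.1 to 7.2 Mb and 2.9 to 3.0 Mb. The first of these covered 18.5 kb and held the next longest chain of III, 8 peaks over 14.8 kb (13584160 to 13598957), covered to 93.7% and including a peak of 5729 bp with a score of 981.21. The window from 7.1 to 7.2 Mb was built of stronger peaks, with 14 of 18 above the list median and a median score of 392.925. The window from 2.9 to 3.0 Mb was built of weak and narrow ones, with 4 of 18 above the median, a median score of 101.915 and a median width of 405.5 bp. Windows of 16 peaks lay at 0.3 to 0.4, 1.2 to 1.3, 12.4 to 12.5 and 12.9 to 13.0 Mb. That at 0.3 to 0.4 Mb held the only peak at 3100 among the crowded windows of III and a chain of 8 peaks over 10.5 kb (322309 to 332846), covered to 80.3%.

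Chromosome III had 31 chains of 4 or more peaks, which together held 169 peaks, or 13.3% of its total. Of these 169 peaks, 22 belonged to the longest chain alone. The share on the other 4 autosomes was 9.86%, with 7.58% on I, 12.6% on II, 11.3% on IV and 8.51% on V. Of the 5 chains of 8 or more peaks on III, 3 were covered to 70% or more, and so were 6 of the 9 such chains on the other autosomes. Among these, 2 of the 3 on III and 3 of the 6 on the other autosomes had a median score at or below the list median. Those on the other autosomes were on II (3159543 to 3168553, 9 peaks, 84.3% covered, median score 206.3) and on IV (6710756 to 6731244, 9 peaks, 73.0% covered, median score 167.93, and 689278 to 698141, 8 peaks, 74.3% covered, median score 100.105). None of these 3 had more than 9 peaks, against 22 in the longest chain of III. Longer chains of low median score lay elsewhere but were less covered. A chain on V (6070965 to 6095832) had 20 peaks, 52.9% covered, with a median score of 118.98 and scores up to 3100. A chain on IV (6688916 to 6703192) had 12 peaks, 55.1% covered, with a median score of 94.255.

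Peaks on III had close neighbours somewhat more often than on the other autosomes. On III 637 peaks, 50.2% (47.4 to 53.0%), had another peak within 2 kb, against a background of 45.2%. On I the share was 48.3% (45.6 to 51.1%), which overlaps that of III. Density and spacing move together across these chromosomes, and their parts were not tested. Within III the left arm had the largest share, 57.8% (53.0 to 62.5%), followed by the right arm with 48.5% (43.7 to 53.3%) and the center with 43.8% (38.9 to 48.8%). The intervals of both arms overlapped, and their median gaps were close, 4.33 kb on the left and 4.41 kb on the right.

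The median gap between neighbouring peaks on III was 4.66 kb (quartiles 1.29 and 12.6 kb), against 6.47 kb on the other 4 autosomes. Gaps of 500 bp or less made up 14.2% of all gaps on III and 11.1% on the others. Without the 22-peak chain, which has 18 of them, the share on III was 13.0%. At the other extreme, 36 peaks of III, 2.84% (1.99 to 3.91%), lay more than 20 kb from any other, against 6.98% (6.25 to 7.76%) on the other autosomes. By point estimate, scores on III were lowest where neighbours were closest: the 310 peaks with a neighbour within 500 bp had a median of 197.325 (171.69 to 232.38). The 287 whose nearest peak was 5 to 20 kb away had 298.18 (252.03 to 346.63). The rise was not steady, with 249.31 at 500 bp to 2 kb, 222.66 at 2 to 5 kb and 277.185 beyond 20 kb. On the other autosomes the classes within 500 bp and at 5 to 20 kb had medians of 209.765 (190.55 to 229.38) and 239.81 (218.01 to 263.23). There the lowest median, 201.54 (165.83 to 266.79), was that of peaks more than 20 kb from any other.

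Stretches of 50 kb or more without a peak were few. Of the 1268 stretches between neighbouring peaks on III, 30 or 2.37% (1.60 to 3.36%) were 50 kb or longer, against a background of 6.10% on the other autosomes. Together they took up 16.1% of the span, compared with 14.4% on I, 30.5% on II, 30.0% on IV and 41.2% on V. Chromosome I, the closest in density, had 31 such stretches. Relative to its own mean gap, III did not have few long gaps: 8.52% were over 3 times the mean, against 7.26% on V to 8.71% on II among the other autosomes. The 30 stretches of III were spread over the left arm (12), the center (9) and the right arm (9).

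Even so, the longest of these stretches was long for so dense a chromosome. It ran for 146 kb in the center, from 6722677 to 6869116, between peaks with scores of 294.72 and 495.12. Its length was 14.4 times the mean gap of III, and on the other autosomes the longest stretch was 9.14 to 10.9 times the mean. A stretch of 81.5 kb (6628295 to 6709761) ended just before it, so that 6.6 to 6.9 Mb, a part of the sparse bin described above, held 11 peaks in all. The next longest were 116 kb in the center (9112231 to 9228038) and 101 kb in the right arm (12714153 to 12815565). The latter ended at a chain of 7 peaks within 6.8 kb (12815566 to 12822352), where an empty and a crowded stretch adjoin.

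The remaining 5 of the 8 longest stretches measured 86.0 to 92.3 kb. Of these 4 were in the left arm, at 690849 to 783148, 1321004 to 1413125, 3540930 to 3630201 and 2172510 to 2261460, and 1 was in the right arm, at 9964153 to 10050135. The 8 longest stretches together made up 5.90% of the span. Peaks on either side of them were of all strengths, from 81.44 to 1244.42, and both of these scores flanked the 116-kb stretch.

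Peaks on III were of ordinary width. The median was 557 bp (546 to 569; quartiles 435 and 707 bp) against 540 bp (533 to 546) on the other autosomes, a difference of 17 bp, and the range was 228 to 7809 bp. On III 29 peaks, 2.29% (1.54 to 3.27%), were 2 kb or wider, against a background of 2.77%. They held 11.8% of the covered bases of III. The widest was a peak of 7809 bp in the center (6566715 to 6574523) with a score of 3100. It was followed by peaks of 6744 bp (2496579 to 2503322, score 3100), 5729 bp (13586411 to 13592139, score 981.21), 5666 bp (5352961 to 5358626, score 1765.41) and 5566 bp (7415538 to 7421103, score 291.02, in the 22-peak chain).

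The median score on III, 244.7 (220.34 to 263.73), had an interval that overlapped that of the other autosomes, 232.915 (222.92 to 245.39). The spread was narrower at the top, with an upper quartile of 547.35 against 601.388. The score 3100 was shared by 171 peaks of the list and is called the ceiling here, although 10 peaks of the list, 1 of them on III, scored above it. On III 19 peaks were at or above it, 1.50% (0.904 to 2.33%), against a background of 3.10% (2.62 to 3.65%). On the single autosomes the share was 2.05% (1.35 to 2.96%) on I and 4.17% (3.08 to 5.51%) on IV. So the most densely occupied autosome by point estimate had the smallest share of ceiling peaks, although its interval overlapped those of I and II. In number per chromosome, 19 on III compare with 27 on I, 30 on II, 47 on IV and 36 on V.

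The ceiling peaks of III were wide, and most had no neighbour within 2 kb. Their median width was 2012 bp (985 to 7809 bp). Of the 19, 5 or 26.3% had a neighbour within 2 kb, against 50.2% over all peaks of the chromosome, a difference that was not tested. By zone they fell in the left arm (9), the center (3) and the right arm (7), and none was found between 3.90 and 6.57 Mb. The only score of III above the ceiling, 3122.81, belonged to a peak of 3533 bp in the left arm (1299709 to 1303241), 17.8 kb before the 92.1-kb stretch without a peak. In the left arm, further peaks at 3100 were at 2077524 to 2082726, 424469 to 428171, 1017324 to 1020650, 3894815 to 3897868 and 317553 to 319771. The peak at 1017324 was 31.6 kb from its nearest neighbour, and no other ceiling peak of III was more than 9.13 kb from its own. In the right arm they included 13446639 to 13448740, 13752650 to 13754661 and 10505594 to 10507232, the last of which lay 2 bp after a preceding peak and 54.5 kb before the following one. In the center the peaks at the ceiling were the 7809-bp one, 8441083 to 8442863 and 8335240 to 8336668.

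Score and width rose together on III (Spearman's rho 0.820 over 1269 peaks of 1 list, a description). On the other autosomes rho was 0.837. Leaving out the 22-peak chain raised the value on III to 0.840. A peak of 313 bp with a score of 363.73 began at base 1 of the chromosome, and the last peak, of 687 bp with a score of 1004.57, ended at 13771591. That last position was taken as the end of the span. The first 100 kb held 12 peaks, including 1 at the ceiling (86165 to 87770), and another ceiling peak lay within 20 kb of the last position, so both ends were occupied.

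**Figure D5:**
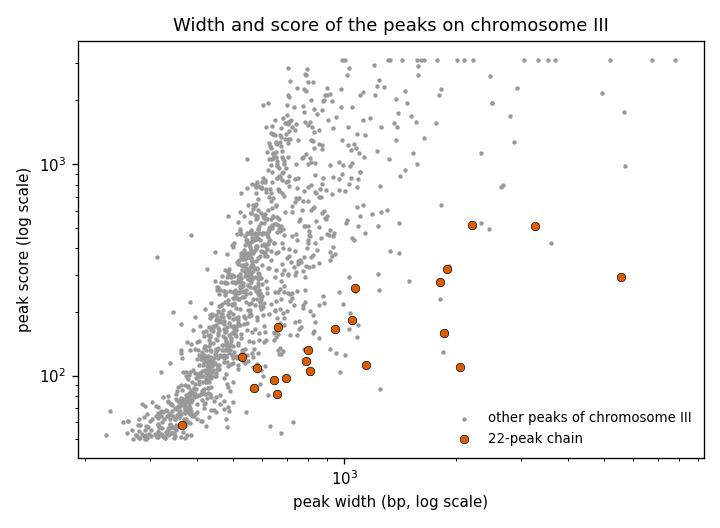
Width (bp) and score of the 1269 peaks of chromosome III, both on log axes; orange points are the 22 peaks of the chain from 7405303 to 7440351. Most peaks follow a rising band up to the ceiling at 3100, and the chain's peaks lie below it, with a score of 291.02 at a width of 5566 bp.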

How the data were processed

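The authors deposited 1 peak list that gives, for each peak, its bounds and a score. BWA and the build ce10 (the browser name of WS220) are named in the submitters' processing notes, and the list was made with MACS on WormBase WS220, per the file headers and columns. The score was deposited by the authors with no scale named. The MACS version and threshold, the use of the input and any pooling were not stated in the labels or headers. Read depth is unknown, so how many peaks fell under the threshold is unknown.

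From the list, peaks were placed by midpoint. The span of a chromosome was base 1 to the end of its last peak. Density intervals are exact Poisson, ratio intervals exact conditional binomial, shares Clopper-Pearson and medians from binomial order statistics. Windows were counted from base 1. A gap is the number of bases between neighbouring peaks. The functions were tested on simulated data. Named were the 12 peaks of highest score, the 8 widest, the 8 fullest 100-kb windows (ties by covered bases), the 8 longest stretches without a peak, the first and last peaks and the 3 longest chains, ties by span. Other positions were chosen after their values were seen. Members, thresholds and alternatives were chosen with earlier results of these data known. The gene table at hand belongs to another assembly, so no gene was assigned to a peak. The software was Python 3.11.15 with scipy 1.17.1, numpy 2.4.6, matplotlib 3.10.9 and pandas 2.3.3.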

Additional observations from a re-analysis of the deposited data

How the results depend on the processing

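Of 53 alternatives to 9 results, 38 stayed within the interval of the value given above or, for counts, within 1.5 times it, and the other 15 moved further. The density ratio of III to the other autosomes stayed above 1 in all 11 of its alternatives. It was 1.55 without chromosome I and 1.27 without V in the background. The ratio of arms to center, 1.08 with an interval that included 1, changed sides with the peaks used and became 0.854 for peaks above the list's median score and 1.42 for those at or below it. With covered bases it also lay under 1, at 0.976, and 1.09 when the 22-peak chain in the center was also left out, an alternative chosen after seeing the data. Crowded windows numbered 1 after peaks within 500 bp were joined, 36 at 12 or more peaks and 2 at 20 or more. Stretches without a peak numbered 63 among peaks above the median score, 149 at 25 kb or more and 3 at 100 kb or more. The share with a neighbour within 2 kb was 31.0% among peaks above the median score, 32.2% among those at or below it and 35.9% after joining. It was 36.3% at 1 kb and 74.5% at 5 kb. Changed thresholds and fewer peaks move these counts by construction, and otherwise the cause was not tested. No paired analysis was possible because no values of the input were analysed and the ChIP has 1 library, which is also why no replicate could be left out.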
